A study of Mus musculus with 10 samples.

Results

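The 80 cytosolic ribosomal protein genes of mouse were followed here in melanoma cells with and without interferon gamma (IFN-γ). They were the rows of the count table whose symbol names a protein of the large (Rpl) or small (Rps) subunit, pseudogenes left out, with at least 100 counts summed over the 10 libraries. Of 87 rows with such a symbol, 80 reached this minimum, 49 for the large and 31 for the small subunit. The table held 77175 rows, of which 15526 had enough counts to be tested, all 80 members included. The other 7 rows, Rpl3l, Rpl6l, Rpl10l, Rpl32l, Rpl39l, Rps4l and Rps12l1, had between 0 and 9 counts in all.

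The cells were B16-F10 (called WT), a mouse melanoma line, and B16-F10-OVA (called OVA), the same line with the lentiviral construct pLV[Exp]-Neo-EF1A>{ovalbumin}, in which the EF1A promoter drives the model antigen ovalbumin. Each line was sampled untreated (2 libraries) and after 24 h with IFN-γ at 50 ng/ml (3 libraries), 4 groups in all. OVA is 1 engineered line, so the construct and any other feature of that line cannot be told apart. The labels do not say that libraries of a group came from separate cultures, so the p-values below measure the spread between these libraries, which may be technical.

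A ribosome is built from ribosomal RNA and a set of proteins, most of them needed in equal number. In mammals most of these proteins are encoded by 1 expressed gene each, and their mRNAs start with a run of pyrimidines, the 5' terminal oligopyrimidine (TOP) tract, through which mTOR signalling and the protein LARP1 control their translation and stability. Growing tumour cells make many ribosomes. IFN-γ acts through JAK kinases, and in human myeloid cells RPL13A released from the ribosome is part of a complex, called GAIT, that represses translation of inflammatory mRNAs.

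The start-site sequences of the genes with the largest changes in either line are shown because the TOP tract, where there is one, begins at the start site, and so that those that rose can be set beside those that fell. Each is the RefSeq window (GRCm38.p6) of 15 bases before and 15 bases from the annotated start on, on the strand of the gene, for the genes with 1 annotated start. Capitals mark runs of at least 5 pyrimidines, which are cut where they pass the end of the window. The first 3 genes were higher with IFN-γ.
Rpl22l1 (chr3:28805493-28805522, + strand): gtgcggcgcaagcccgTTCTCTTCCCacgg
Rpl39 (chrX:37085208-37085237, - strand): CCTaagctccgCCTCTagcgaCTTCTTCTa
Rps27 (chr3:90213634-90213663, - strand): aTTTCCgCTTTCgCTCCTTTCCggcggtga
The next 4 genes were lower with IFN-γ in at least 1 line.
Rpl37a (chr1:72711245-72711274, + strand): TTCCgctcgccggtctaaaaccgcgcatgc
Rps16 (chr7:28350674-28350703, + strand): cccgCTTCTgtcgtgacgtagcactcaatg
Rps2 (chr17:24720048-24720077, + strand): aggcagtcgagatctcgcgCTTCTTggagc
Rpsa (chr9:120127751-120127780, + strand): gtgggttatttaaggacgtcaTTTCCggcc

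RefSeq start windows were found for 60 of the 80 members. A run of at least 8 pyrimidines beginning within 50 bases of an annotated start, on the sense strand, was present for 51 of these 60 (85.0%), and for 38.6% of the 27025 genes in the same table. In the whole window of 300 bases (250 before the start and 50 after), the letters CCGGAA, the core bound by ETS factors, stood on either strand for 55.0% of members and 16.7% of all genes. The letters TATAAA were found for 11.7% of members and 15.7% of all genes. Such a match describes the letters only. In WT cells the median log2 fold change was 0.129 for the 51 members with the pyrimidine run and 0.0468 for the 9 without it. In OVA cells these medians were 0.173 and 0.0943. The runs were present both in genes that rose and in genes that fell: Rpl37a, Rps2 and Rps16 had one and Rpsa did not.

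The table held between 17728722 and 19642533 counts per library. Markers of the melanocyte lineage, all 7 detected, summed to between 23100 and 24500 CPM (the count of a gene scaled to the total of its library). The leukocyte marker Ptprc and both markers of red cell precursors had no counts in any library. The 3 fibroblast markers summed to between 8.98 and 18.9 CPM, the 3 macrophage markers to between 1.44 and 4.12 CPM, and the T cell, epithelial and endothelial markers to at most 0.952 CPM.

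Member levels spanned a wide range. Per kb of exon, the lowest was Rps27 with 4.53 CPM per kb, the median 135 and the highest Rplp1, a protein of the lateral stalk that recruits elongation factors, with 1140. These levels use all annotated exons, which are longer than the mature mRNA for many of these genes. The order of the members by level was nearly the same in every group (Spearman's rho between group means from 0.995 to 0.998 over 80 members, which share the gene lengths). The highest number of counts was that of Rps2, with 224400 counts over all libraries, and the lowest that of Rps27, with 864. The table also holds Rps27rt, an intronless copy outside the symbol rule, with 13757 counts. The levels of both are uncertain, because no source used here says how reads that fit both copies were counted.

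Together the members took 2.577% and 2.522% of all counts in the untreated WT libraries and 2.552%, 2.602% and 2.769% in those with IFN-γ. In OVA they took 2.494% and 2.559% untreated and 2.66%, 2.748% and 2.833% with IFN-γ. The treated OVA libraries were thus all above the untreated ones, while the WT groups overlapped. Of totals scaled by the TMM factors used for the tests, the members took 2.557% and 2.505% untreated and 2.598%, 2.631% and 2.808% treated in WT, and the groups did not overlap. The overlap in WT thus depended on the scaling. In OVA the TMM-scaled shares were 2.479% and 2.555% untreated and 2.641%, 2.746% and 2.836% treated, again without overlap. Group means of the unscaled shares were 2.55% ± 0.0387 (SD, n = 2) and 2.641% ± 0.114 (SD, n = 3) in WT, and 2.527% ± 0.0454 (SD, n = 2) and 2.747% ± 0.0862 (SD, n = 3) in OVA.

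Most of the increase in share was in the large subunit members, which also held most of the member counts. Its members took 1.542% ± 0.0231 (SD, n = 2) of counts in untreated and 1.632% ± 0.0657 (SD, n = 3) in treated WT cells, and 1.53% ± 0.0259 (SD, n = 2) and 1.691% ± 0.0547 (SD, n = 3) in OVA cells. Small subunit members took 1.008% ± 0.0156 (SD, n = 2) and 1.009% ± 0.048 (SD, n = 3) in WT, and 0.9969% ± 0.0195 (SD, n = 2) and 1.056% ± 0.0315 (SD, n = 3) in OVA. Without Rps2 and Rpsa, chosen after their fall was seen, small subunit members took 0.7571% untreated and 0.7877% treated in WT. In OVA they then took 0.7467% untreated and 0.8271% treated. A share is a part of a fixed total, so a larger share of ribosomal mRNA and a smaller amount of other mRNA per cell cannot be told apart.

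**Figure D1:**
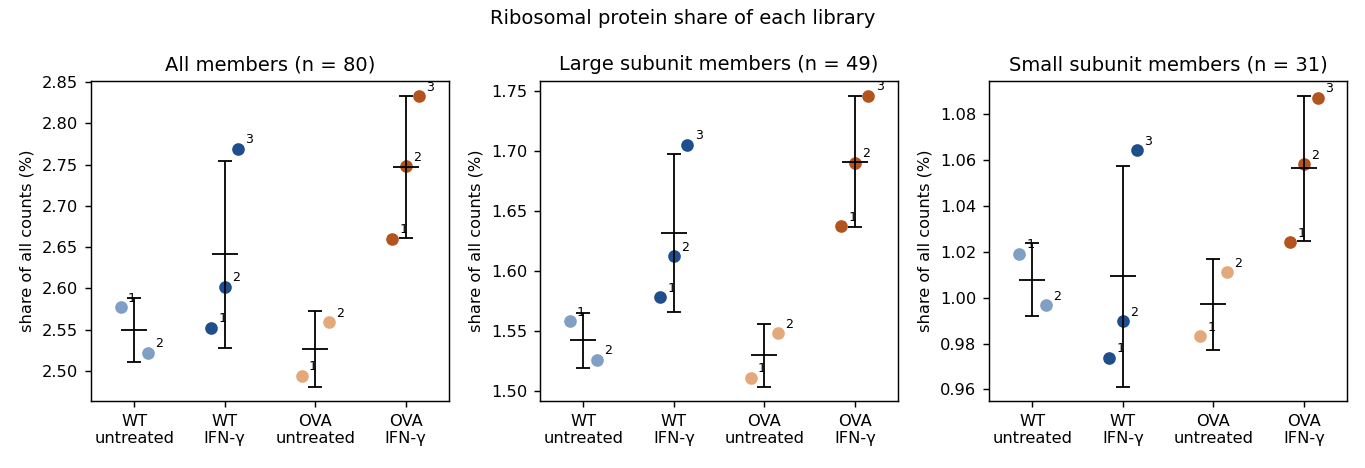
Share of all counts in percent (vertical axis, not starting at 0) held by all, large subunit and small subunit members in each library, with the replicate number beside each point and bars for the mean and SD of the group. The treated OVA libraries lie at 2.66% or above for all members, over both untreated OVA libraries, whereas the WT groups overlap in these unscaled shares but not in TMM-scaled ones.

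One treated library of each line stood above the others in member level. In WT IFN-γ replicate 3, 76 of 80 members were above the mean of their group, and in OVA IFN-γ replicate 3 all 80 were. In OVA IFN-γ replicate 1, 3 of 80 were. The members move together between libraries of a group, and they are not independent of each other. The part of this shared shift in the results below was not tested. The count of all members called higher with IFN-γ in a line is given with and without those of its libraries. Counts by subunit or by list are given from all libraries only.

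With IFN-γ, more members were higher than lower in both lines. In WT cells 40 of 80 were called higher (50%) and 4 lower (5%) by the quasi-likelihood test of edgeR at an adjusted p of 0.05, where 24.5% of all tested genes were higher and 19.7% lower. In OVA cells 50 were higher (62.5%) and 3 lower (3.75%), where 25.9% and 22.9% of all tested genes were. The median member differed by a log2 fold change of 0.116 (8.36%) in WT and 0.163 (12%) in OVA. Over all tested genes these medians were 0.0106 and 0.00176.

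Changes were small. More than 1.25-fold differences were seen for 3 members in WT (2 higher, 1 lower) and for 8 in OVA (all higher), and Rps27 alone passed 1.5-fold. The quartiles of the members were log2 fold changes of 0.0295 and 0.172 in WT and 0.0519 and 0.261 in OVA. Those of all tested genes ran from -0.234 to 0.226 in WT and from -0.267 to 0.252 in OVA. Treated and untreated libraries did not overlap for 42 members that lay above and 6 that lay below in WT, where 33% and 29% of all tested genes did so. In OVA there were 50 above and 4 below, where 34% and 31.7% of all tested genes did so.

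The number called in WT depended on single libraries and on scaling. Without untreated replicate 2 it was 18 higher (22.5%), where 18.5% of all tested genes were. Without IFN-γ replicate 3 it was 21 higher (26.2%) and 7 lower (8.75%), where 21.2% and 19.1% of all tested genes were. In both of these fits the share of members called higher in WT was near that of all genes. With upper quartile scaling 12 members were higher (15%) and 8 lower (10%) in WT, where 17.8% and 26% of all tested genes were, so that the share called higher was below that of all genes. Of the calls, 60% were then higher, against 90.9%. The median log2 fold change in WT under that scaling was 0.0443 for members and -0.0605 for all tested genes. In OVA 37 were then higher (46.2%) and 8 lower (82.2% of the calls higher, against 94.3%), where 20.4% and 27.8% of all tested genes were. With library size alone there were 24 higher (30%) and 6 lower in WT (80% of the calls higher), where 21.3% and 22.2% of all tested genes were. Without untreated OVA replicate 1, 31 were higher in OVA (38.8%), where 18.6% of all tested genes were, and without OVA IFN-γ replicate 3, 6 were lower, where 21.6% of all tested genes were. In that last fit 40 were higher in OVA (50%), where 22.6% of all tested genes were higher. Without OVA IFN-γ replicate 1, 52 were higher in OVA (65%), where 23.5% of all tested genes were. Leaving out both treated libraries numbered 3 was an alternative chosen after the data were seen. There 27 were higher (33.8%) and 9 lower in WT, where 21.9% and 19.7% of all tested genes were. In OVA 41 were then higher (51.2%) and 6 lower, where 23.4% and 22.5% were.

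A smaller group of members kept its call throughout. The share of all tested genes that kept a call in the same fits was not computed. The counts here are therefore a description only. In OVA 31 members were higher and 2 lower in the main fit and in each of 16 other fits, namely 10 without 1 library, 4 with other scalings, DESeq2 and limma-voom. In WT 11 were higher and 3 lower in all of these. Among the 11 were Rps24, Rpl36al, Rps20, Rpl4, Rpl19, Rpl17, Rpl34, Rps6, Rpl23a and Rpl13a, and each of these was also among the 31 in OVA. The 3 lower in WT were Rpl37a, Rps2 and Rpsa, and the 2 in OVA were Rpl37a and Rps2.

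The calls of both lines overlapped. Of the 80, 38 were higher in both lines, 3 were lower in both, 24 were called in neither and none was called in opposite directions. The same counts were not made over all tested genes, so these describe the members only. Called higher only by the OVA test were 12 members, called higher only by the WT test were Rpl5 and Rpl18, and called lower only by the WT test was Rps16. Across the 80 members the log2 fold changes of both lines had a Pearson's r of 0.84 and a Spearman's rho of 0.80. Over all 15526 tested genes r was 0.87 and rho 0.76. The comparisons share no library, but the genes share the scaling of each library.

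**Figure D2:**
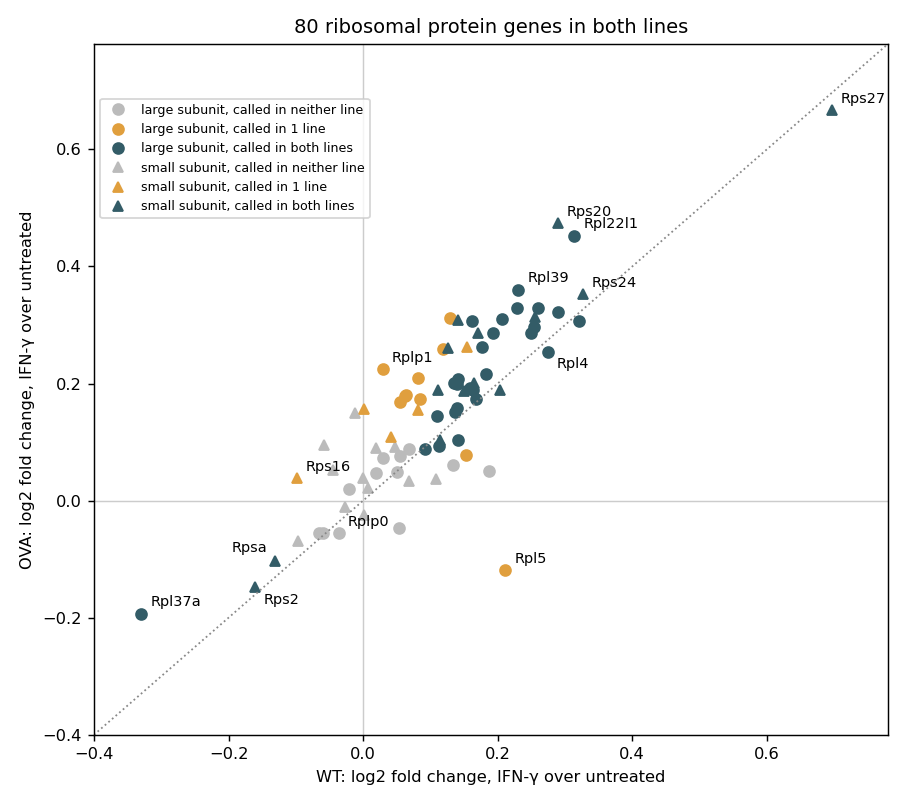
Log2 fold change with IFN-γ over untreated in WT (horizontal) and OVA (vertical) for the 80 members, circles for the large and triangles for the small subunit, coloured by whether edgeR called the gene in neither, 1 or both lines; the dotted line marks equal change. Most members lie right of and above 0, 3 that fell in both lines lie at the lower left, and Rpl5 lies off the line.

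Among large subunit proteins, most of those at the exit tunnel and its rim were called higher. This tunnel is the path by which the new chain leaves the ribosome, and its rim is where the signal recognition particle and chaperones dock. Of the 9 listed (Rpl4, Rpl17, Rpl19, Rpl22, Rpl23a, Rpl26, Rpl31, Rpl35 and Rpl39), 8 were higher in WT and 9 in OVA, with median log2 fold changes of 0.207 and 0.287. Rpl31 was the exception in WT (0.12, edgeR adjusted p = 0.0533). Of all 49 large subunit members, 57.1% were called higher in WT and 69.4% in OVA, and of all tested genes 24.5% and 25.9%. The list was chosen with earlier results of these data known, so its counts are a description only and show no property of the tunnel. In OVA all 9 calls held in each of the 16 other fits, and in WT 4 did (Rpl4, Rpl17, Rpl19 and Rpl23a).

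Rpl4, whose long loop lines the tunnel, had 1060 and 1020 CPM in untreated WT cells and 1240, 1240 and 1310 with IFN-γ. In OVA it had 1060 and 1100 CPM untreated and 1230, 1290 and 1330 treated. All treated libraries were above all untreated ones. It rose by a log2 fold change of 0.27 (SE 0.0352, edgeR adjusted p = 6.33e-06) in WT and 0.25 (SE 0.0352, adjusted p = 1.31e-05) in OVA.

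Rpl19, at the rim of the tunnel, had 484 and 491 CPM untreated and 563, 574 and 614 treated in WT, and 495 and 511 against 615, 637 and 645 in OVA. The groups did not overlap in either line. The log2 fold changes were 0.26 (SE 0.0361, edgeR adjusted p = 1.57e-05) and 0.33 (SE 0.036, adjusted p = 8.96e-07). Rpl39, a small protein deep in the tunnel, rose by 0.23 in WT (adjusted p = 0.0283) and 0.36 in OVA (adjusted p = 0.00156), but its WT call was lost without untreated WT replicate 2 (adjusted p = 0.214) and without WT IFN-γ replicate 2 (0.0881) or 3 (0.116).

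Outside the tunnel list, Rpl13a, the protein of the GAIT complex, had 443 and 425 CPM untreated and 475, 484 and 518 treated in WT, and 443 and 470 against 520, 528 and 543 in OVA. It rose by 0.18 (SE 0.0388, adjusted p = 0.000989) and 0.22 (SE 0.0387, adjusted p = 0.00018), without overlap in either line.

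Of the 3 genes of the lateral stalk, none was called in WT and 1 was called higher in OVA. Among all tested genes, 24.5% were called higher in WT and 25.9% in OVA. Rplp0, the base of the stalk, had 1210 and 1200 CPM untreated against 1160, 1150 and 1210 treated in WT, and 1230 and 1240 against 1170, 1190 and 1220 in OVA. Its log2 fold changes were -0.04 (SE 0.0284, edgeR adjusted p = 0.331) and -0.06 (SE 0.0284, adjusted p = 0.123), so that no change was called. Rplp2, one of the pair of acidic stalk proteins, was not called either, at 0.05 and 0.08. Its partner Rplp1 had 561 and 530 CPM untreated and 522, 552 and 597 treated in WT, which overlap. In OVA it had 531 and 534 untreated against 608, 623 and 635 treated, and there it rose by 0.22 (SE 0.0435, adjusted p = 0.000387).

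Rpl5 and Rpl11 form, with 5S ribosomal RNA, the particle that binds MDM2 and stabilises p53 when ribosome assembly fails. Rpl11 was not called in either line (-0.06 and -0.06). Rpl5 had few counts for its class, between 489 and 664 per library. It had 27 and 28.8 CPM untreated and 33.2, 31.9 and 31.8 treated in WT, and it rose by 0.21 (SE 0.0708, edgeR adjusted p = 0.0229), a call lost without untreated WT replicate 1 (adjusted p = 0.175) and WT IFN-γ replicate 1 (0.0779). Its OVA levels were 36.4 and 33.6 CPM untreated and 34.3, 28.9 and 33.5 treated, which overlap, and there it was not called (-0.12, adjusted p = 0.168). Of the other 2 genes of that list, Rpl26, which also binds p53 mRNA in other cells, was called higher in both lines (0.18 and 0.26). Its WT call was lost without either untreated WT library (adjusted p = 0.113 and 0.0661) or WT IFN-γ replicate 3 (0.12). Rpl23 was called higher in OVA alone (0.05 and 0.17, adjusted p = 0.0479), a call lost without any 1 of 6 libraries (adjusted p up to 0.327).

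Of the small subunit genes, 12 of 31 were higher and 3 lower in WT, and 16 higher and 2 lower in OVA, with medians of 0.0685 and 0.109. For the large subunit these were 28 higher and 1 lower of 49 in WT, and 34 higher and 1 lower in OVA, with medians of 0.136 and 0.179. In WT, 38.7% of small and 57.1% of large subunit members were higher, where 24.5% of all tested genes were. In OVA these were 51.6% and 69.4%, where 25.9% of all tested genes were. Lower calls were rarer than among all tested genes, of which 19.7% were lower in WT and 22.9% in OVA. The difference between the subunits in these counts was not tested.

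Rps20, in the head of the small subunit, had the largest rise of any member at over 100 CPM in OVA. It had 149 and 147 CPM untreated and 202, 208 and 206 with IFN-γ in OVA, and 157 and 153 against 179, 189 and 200 in WT. The groups did not overlap, and the treated OVA libraries were also above all treated WT libraries. Its log2 fold changes were 0.29 (SE 0.0399, edgeR adjusted p = 1.42e-05) in WT and 0.47 (SE 0.04, adjusted p = 3.31e-08) in OVA.

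Rps24, one of the genes mutated in Diamond-Blackfan anaemia, had 305 and 305 CPM untreated and 353, 376 and 419 treated in WT, and 291 and 299 against 365, 374 and 392 in OVA. It rose by 0.33 (SE 0.0524, edgeR adjusted p = 7.21e-05) and 0.35 (SE 0.0525, adjusted p = 2.82e-05), with no overlap. Rps6, the classic substrate of the S6 kinases downstream of mTOR, had 405 and 389 CPM untreated and 449, 454 and 467 treated in WT. OVA cells had 417 and 414 against 460, 470 and 492. It rose by 0.20 (adjusted p = 8.82e-05) and 0.19 (adjusted p = 0.000149). Rps19, the gene most often mutated in that anaemia, was not called (-0.04 and 0.05).

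Of the 6 genes listed for the mRNA channel and decoding (Rps2, Rps3, Rps15, Rps23, Rps26 and Rps28), 2 were higher and 1 lower in each line. These are 33.3% and 16.7%, near the shares of all tested genes (24.5% and 19.7% in WT, 25.9% and 22.9% in OVA). Rps23, which sits at the decoding centre, was called higher by 0.17 and 0.29, and Rps26, at the mRNA exit, by 0.14 and 0.31. Both WT calls were lost without untreated WT replicate 2 (adjusted p = 0.202 and 0.122) and WT IFN-γ replicate 3 (0.167 and 0.0933). Rps2, at the mRNA entry, was the one that fell.

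**Figure D3:**
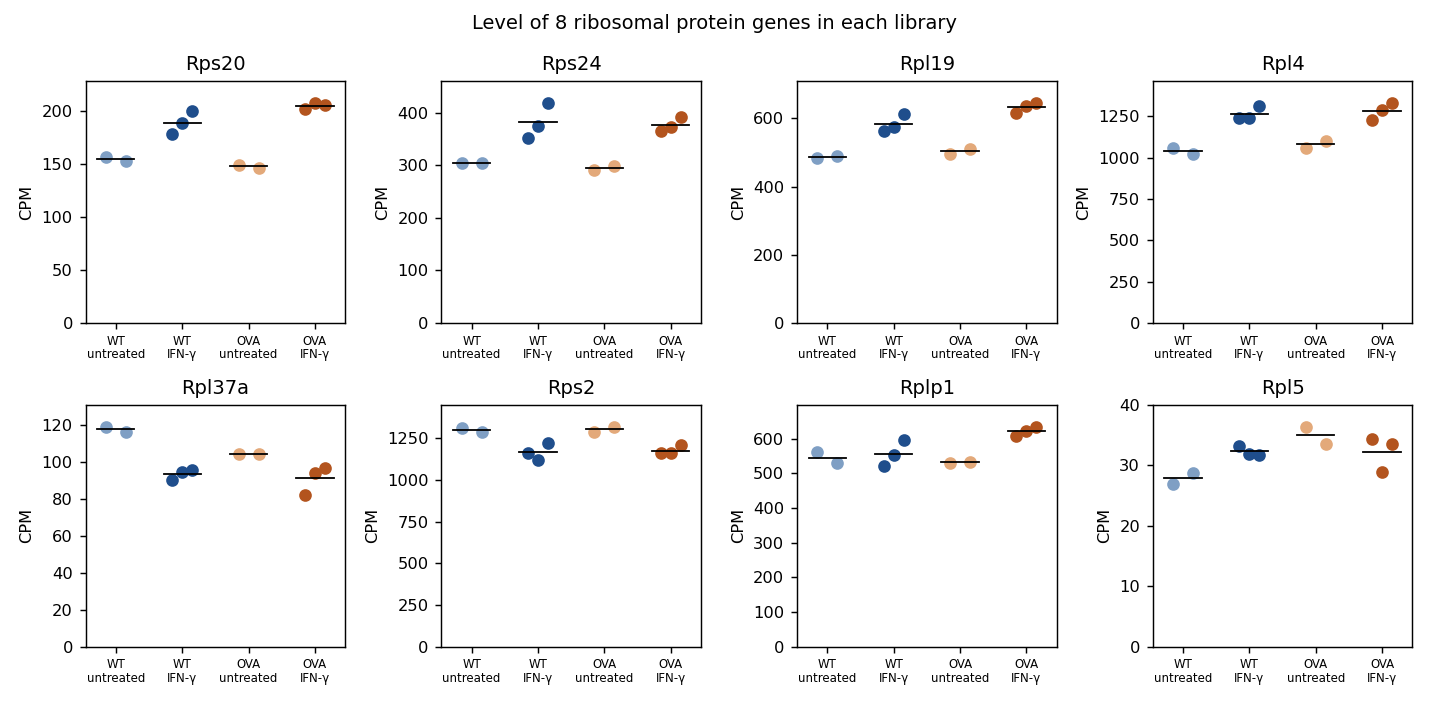
Level in CPM (vertical axis from 0, library scaled by TMM) of 8 members in each library, 1 point per library and a line for the group mean. Rps20, Rps24, Rpl19 and Rpl4 were higher with IFN-γ in both lines, Rpl37a and Rps2 were lower in both, and Rplp1 was higher in OVA. Rpl5 was called higher in untreated OVA than in untreated WT, a call that depended on single libraries. Its treated and untreated OVA levels overlapped.

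The genes that fell in both lines were Rpl37a, Rps2 and Rpsa. Rpl37a, a zinc-binding protein of the large subunit, had 119 and 116 CPM in untreated WT cells and 90, 94.5 and 95.5 with IFN-γ. The OVA levels were 104 and 104 CPM untreated and 82.2, 94.2 and 96.8 treated. Treated libraries were below untreated ones in both lines. The log2 fold changes were -0.33 (SE 0.0525, edgeR adjusted p = 6.75e-05) and -0.19 (SE 0.0536, adjusted p = 0.00667).

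Rps2 had 1310 and 1290 CPM untreated and 1160, 1120 and 1220 treated in WT, and 1290 and 1320 against 1160, 1160 and 1210 in OVA. No treated library reached an untreated one. It fell by 0.16 (SE 0.0333, edgeR adjusted p = 0.00079) and 0.15 (SE 0.0333, adjusted p = 0.00138) on the log2 scale. Rpsa, the protein also known as the laminin receptor, had 1190 and 1180 CPM untreated and 1060, 1040 and 1130 treated in WT. In OVA it had 1170 and 1210 against 1100, 1090 and 1130. It fell by 0.13 (adjusted p = 0.00385) and 0.10 (adjusted p = 0.0172), the latter no longer called without untreated OVA replicate 2 (adjusted p = 0.198). Rps16 was called lower in WT alone (-0.10, adjusted p = 0.0444), and the call was lost without untreated WT replicate 1 (adjusted p = 0.446), WT IFN-γ replicate 1 (0.0888) and untreated OVA replicate 2 (0.057).

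The balance of the subunits differed between treated and untreated libraries. The ratio of large to small subunit counts was 1.53 ± 0.000711 (SD, n = 2) untreated and 1.617 ± 0.0133 (SD, n = 3) treated in WT, and 1.534 ± 0.00401 (SD, n = 2) and 1.601 ± 0.00481 (SD, n = 3) in OVA. All 6 treated libraries, between 1.598 and 1.629, were above all 4 untreated ones, between 1.53 and 1.537. Rps2 and Rpsa held 24.87% of small subunit counts in untreated and 21.95% in treated WT cells, and 25.1% and 21.68% in OVA cells. Without these 2 genes the ratio was 2.037 ± 0.00603 and 2.072 ± 0.0207 in WT and 2.049 ± 0.00589 and 2.044 ± 0.0127 in OVA. These 2 genes were chosen after their fall was seen, so a smaller gap without them follows from the choice. The gap between treated and untreated groups was then smaller in WT, whose libraries still did not overlap, and the OVA groups overlapped.

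**Figure D4:**
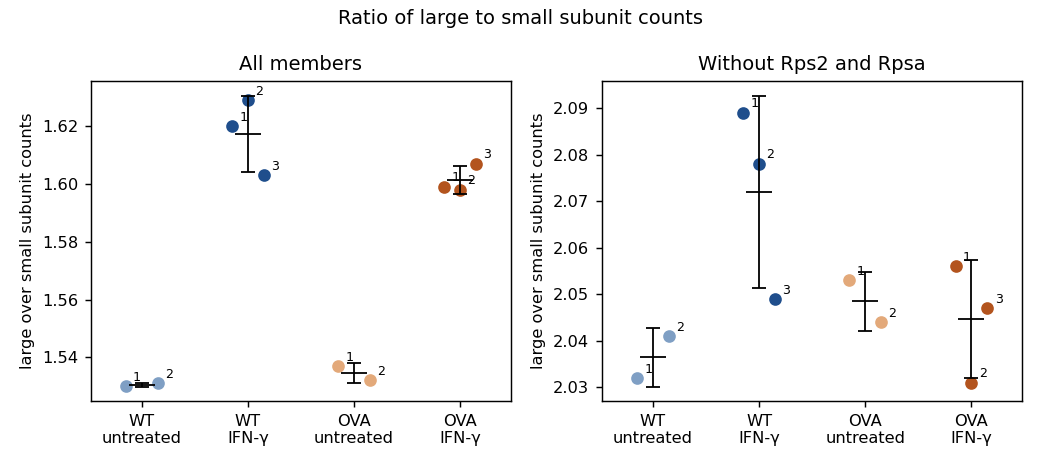
Ratio of large to small subunit counts (vertical axis, not starting at 0) in each library with all members and without Rps2 and Rpsa, with the replicate number beside each point and bars for mean and SD. With all members the treated libraries (1.598 to 1.629) lie above the untreated ones (1.53 to 1.537), and without these 2 genes the OVA group means are 2.049 and 2.044.

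Paralogs give some ribosomes a different protein at the same place. Of 7 listed, 3 (Rpl3l, Rpl10l and Rpl39l, known from muscle or testis) had 0 or 1 count in all libraries together. The other 4 were called higher in both lines, where 24.5% of all tested genes were in WT and 25.9% in OVA. Rpl36al had 97.1 and 92.6 CPM untreated and 113, 114 and 121 treated in WT, and 93.5 and 94.3 against 111, 118 and 123 in OVA. It rose without overlap by 0.29 (SE 0.0458, edgeR adjusted p = 6.18e-05) and 0.32 (SE 0.0459, adjusted p = 1.81e-05), whereas its near-identical partner Rpl36a was not called (0.13 and 0.06). Rpl36al held 74.8% ± 1.31 (SD, n = 2) of the counts of that pair in untreated and 76.8% ± 1.1 (SD, n = 3) in treated WT cells. In OVA cells it held 72.4% ± 0.587 (SD, n = 2) and 75.9% ± 0.508 (SD, n = 3). Reads shared by such copies can be split between them by the counting, so the shares are uncertain.

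Rpl22l1, which is held down by Rpl22 in other cells, had 29.5 and 26 CPM untreated and 30.9, 33.7 and 38.8 treated in WT. The OVA libraries had 21.7 and 26 CPM untreated and 28.5, 35.1 and 34.4 treated. The groups did not overlap in either line, and it rose by 0.31 (SE 0.103, edgeR adjusted p = 0.0206) and 0.45 (SE 0.107, adjusted p = 0.00213). The WT call was lost without untreated WT replicate 2 (adjusted p = 0.205) and WT IFN-γ replicate 3 (0.108), and the OVA call without untreated OVA replicate 1 (0.0678). Rpl22 itself rose by 0.21 and 0.31, its WT call lost without either untreated WT library (0.0552 and 0.167) or WT IFN-γ replicate 3 (0.135). The share of Rpl22l1 in that pair was 16.8% ± 0.776 and 17.9% ± 0.186 in WT and 15.4% ± 1.55 and 16.8% ± 1.16 in OVA.

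Rps27l, a p53 target in other cells, took most of the counts of Rps27l and Rps27 together. Its share was 96% and 94.2% in WT and 95.7% and 94.1% in OVA, untreated first. This pair leaves out the copy Rps27rt, which had 13757 counts over all libraries, against 15682 of Rps27l and 864 of Rps27. The share is therefore uncertain and does not show that Rps27l replaces Rps27. Rps27l was called higher by 0.15 (edgeR adjusted p = 0.031) and 0.19 (adjusted p = 0.00685). Its WT call was lost without any 1 of 6 libraries, with adjusted p up to 0.192, and its OVA call without untreated OVA replicate 1 (0.0871). Rps27 had 2.98 and 3.31 CPM untreated against 6.98, 4.58 and 3.77 treated in WT and 3.56 and 4 against 5.26, 4.61 and 8.14 in OVA. Its log2 fold changes of 0.70 (SE 0.267, adjusted p = 0.0433) and 0.67 (SE 0.253, adjusted p = 0.0384) had the largest errors of all named members. limma-voom called neither (adjusted p = 0.0817 and 0.0606), and in WT the value was 0.40 without IFN-γ replicate 1 (adjusted p = 0.22), in OVA 0.38 without IFN-γ replicate 3 (0.216). Rpl7l1, a factor of large subunit assembly, was called higher by 0.14 and 0.10, the WT call lost without untreated WT replicate 1 (adjusted p = 0.0776) and the OVA call without either untreated OVA library (0.19 and 0.0719) or OVA IFN-γ replicate 2 (0.0932) or 3 (0.0928). Its partner Rpl7 rose by 0.14 and 0.20, the former not called without untreated WT replicate 2 (0.0585).

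The response to IFN-γ was not shown to differ between the lines for any member. The test of the difference (OVA minus WT) called none of 80 by edgeR, where 0.0773% of all tested genes were higher and 0.264% lower. At an unadjusted p of 0.05 it gave 6 members, 5 higher and 1 lower. These were 7.5% of members, below the 10.7% of all tested genes. The adjusted test by limma-voom called none. The median difference of the members was a log2 value of 0.0375, and 62 of 80 were above 0. DESeq2 called Rplp1, whose difference was 0.20 (SE 0.0613, edgeR adjusted p = 0.233, DESeq2 adjusted p = 0.0423). Without WT IFN-γ replicate 3, edgeR called Rplp1 (0.25, adjusted p = 0.024) and Rps20 (0.23, adjusted p = 0.0354). The smallest adjusted p was that of Rpl5 (-0.33, SE 0.0983, adjusted p = 0.213). The members called in 1 line only are therefore not shown to respond differently.

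Between the untreated lines 1 member was higher and 1 lower in OVA, where 2.98% of all tested genes were higher and 2.55% lower. Rpl5 was higher by 0.33 (SE 0.0766, edgeR adjusted p = 0.0174), with both OVA libraries above both WT libraries. Libraries did not overlap for 13 members that lay above and 30 that lay below in OVA, where 26.4% and 23.3% of all tested genes did not. Rpl28 had 214 and 203 CPM in untreated WT cells and 192 and 190 in untreated OVA cells, which do not overlap. It was lower by 0.13 (SE 0.0367, adjusted p = 0.0497). The call of Rpl5 was lost without either untreated WT library (adjusted p = 0.158 and 0.0597) or untreated OVA replicate 1 (0.17), and that of Rpl28 without any 1 of 8 libraries (adjusted p up to 0.386).

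Under IFN-γ 5 members were higher in OVA than in WT and none lower, where 6.36% of all tested genes were higher and 7.99% lower. They were Rps27l (0.18, edgeR adjusted p = 0.0142), Rplp1 (0.16, SE 0.0386, adjusted p = 0.0106), Rps20 (0.12, adjusted p = 0.0312), Rpl19 (0.11, adjusted p = 0.0225) and Rpl13a (0.11, adjusted p = 0.0466). Rplp1 kept its call in all 16 other fits and the other 4 lost it in at least 1. At an unadjusted p of 0.05, 15 were higher and 1 lower. The treated libraries of the lines did not overlap for 6 members, all above in OVA, where 15.1% of all tested genes lay above and 16% below. The count depended on 1 library. Without WT IFN-γ replicate 3, 20 were higher (25%), where 7.29% of all tested genes were. Without WT IFN-γ replicate 1 only 1 was (1.25%), where 4.46% of all tested genes were. Leaving out treated OVA replicate 1 gave 8 (10%), against 5.7% of all tested genes. Leaving out treated OVA replicate 2 gave 1 (1.25%), against 4.59%. There were 2 (2.5%) without replicate 2 of treated WT, against 3.81%, and 2 without replicate 3 of treated OVA, against 4.31%. The share of members was thus above or below that of all tested genes, depending on the library left out. This comparison shares its libraries with those above and adds no separate evidence.

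Some proteins of the small and large subunit carry other symbols. Of 5 tested, 1 was higher in WT (20%) and 4 in OVA (80%), where 24.5% and 25.9% of all tested genes were. Rack1, a scaffold for kinases on the small subunit, rose by 0.21 (SE 0.0347, edgeR adjusted p = 0.00011) and 0.24 (SE 0.0347, adjusted p = 2.35e-05). Rps27rt, the copy of Rps27, had 0.18 (adjusted p = 0.107) and 0.22 (adjusted p = 0.0448).

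Mitochondrial ribosomal proteins, which are encoded in the nucleus and form the separate ribosome of the organelle, were also called higher more often than lower. Of 78, 37 were higher (47.4%) and 8 lower (10.3%) in WT, where 24.5% and 19.7% of all tested genes were. In OVA 39 were higher (50%) and 5 lower (6.41%), where 25.9% and 22.9% of all tested genes were. The medians were 0.156 and 0.178. Mrps34 rose the most, by 0.71 (SE 0.0597, edgeR adjusted p = 3.76e-08) and 0.76 (SE 0.0585, adjusted p = 1.08e-08). The cytosolic members had 40 and 50 higher calls among 80 and medians of 0.116 and 0.163, beside which these values stand close.

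Other mRNAs with a TOP tract did not move together. Of 16, 7 were higher (43.8%) and 4 lower (25%) in each line, with medians of 0.0399 and 0.0349. Among all tested genes, 24.5% were higher and 19.7% lower in WT, and 25.9% and 22.9% in OVA. Eif3e, a subunit of the initiation factor that binds the small subunit, rose by 0.32 (SE 0.038, edgeR adjusted p = 2.45e-06) and 0.44 (SE 0.0379, adjusted p = 4.84e-08). Pabpc1, the poly(A) binding protein, fell by 0.28 (SE 0.0293, adjusted p = 6.73e-07) and 0.43 (SE 0.0293, adjusted p = 2.11e-09). Nap1l1, a histone chaperone, fell by 0.20 and 0.34.

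Among 16 genes of mTOR signalling and TOP mRNA control, 6 were higher (37.5%) and 5 lower (31.2%) in WT. In OVA 7 were higher (43.8%) and 5 lower (31.2%). Of all tested genes, 24.5% were higher and 19.7% lower in WT, and 25.9% and 22.9% in OVA. Eif4ebp2, a repressor of cap-dependent initiation, fell by 0.88 (SE 0.031, edgeR adjusted p = 1.96e-13) in WT and 1.04 (SE 0.0312, adjusted p = 1.91e-14) in OVA. Larp1 rose by 0.45 (adjusted p = 9.96e-09) and 0.39 (adjusted p = 5.61e-08). Ddit4, an inhibitor of mTORC1, fell by 0.61 and 0.45, and Rps6kb1, the S6 kinase, rose by 0.32 and 0.35. Myc, which drives ribosomal genes in growing cells, fell by 0.33 and 0.24. In the GAIT list, Rpl13a, Eprs1 and Dapk3 were higher and Gapdh and Syncrip lower in both lines, with Eprs1 up by 0.17 and 0.18 and Dapk1 too low to be tested.

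Of 32 ribosome biogenesis genes, 16 were higher (50%) and 1 lower (3.12%) in WT. In OVA 15 were higher (46.9%) and 2 lower (6.25%), and the medians were 0.08 in WT and 0.109 in OVA. Among all tested genes, 24.5% were higher and 19.7% lower in WT, and 25.9% and 22.9% in OVA. Nop14, needed for the small subunit, rose by 0.34 (edgeR adjusted p = 1.62e-06) and 0.44 (adjusted p = 5.92e-08). Between the lines, 7 of this list were higher in untreated OVA (21.9%) and 14 in treated OVA (43.8%), with none lower. Of all tested genes, 2.98% were higher and 2.55% lower in untreated OVA, and 6.36% and 7.99% in treated OVA. With IFN-γ, 13 of 24 initiation factors were higher (54.2%) and 4 lower (16.7%) in WT, and 10 higher (41.7%) and 4 lower in OVA. Among them Eif4g1, the scaffold of the cap-binding complex, fell by 0.23 and 0.28.

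**Figure D5:**
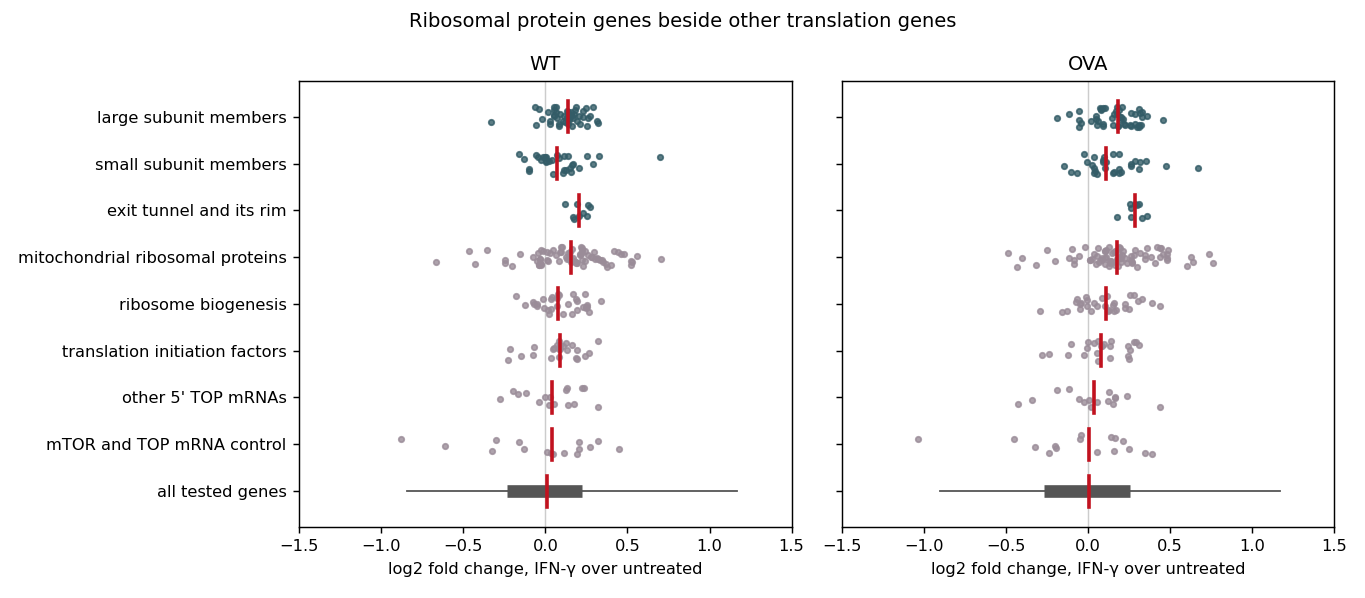
Log2 fold change with IFN-γ over untreated (horizontal axis) in WT and OVA for large and small subunit members, the exit tunnel genes (a part of the large subunit members) and other lists, 1 point per gene, with the median as a red bar. For all tested genes the thick bar spans the quartiles and the thin line the 5th to 95th percentile; 67 of 80 members in WT and 69 of 80 in OVA lie to the right of 0, and the others, Rpl37a among them, to the left.

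Gene length moved with these values. The members had a median exon length of 1805.5 bases against 4123.5 over the tested genes, and 50 of the 80 were in the shortest of 5 equal classes of length. The median of that class was 0.0439 in WT and 0.0648 in OVA, and that of the longest class -0.0215 and -0.0668. The members in the shortest class had medians of 0.115 and 0.177. Among the members themselves log2 fold change and exon length had a Spearman's rho of 0.04 in WT and -0.03 in OVA (n = 80 genes). The part of length in the results was not tested. Rows named as ribosomal protein pseudogenes, 174 of 310 with counts, held between 4.62% and 5.05% as many counts as the members.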

How the data were processed

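Poly-A selected RNA of 10 samples was sequenced. The authors' deposited table gives raw read counts per Ensembl gene. The submitters' processing notes name the aligner HISAT2 (2.0.5), the counter featureCounts (1.6.0) and GRCm39. The annotation release, the strand setting and what was done with multi-mapping reads are stated in no source used here. The extraction protocol speaks of tissue, other labels of cell lines, which is how the samples are taken here.

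The members, lists and naming rule were chosen with earlier results of these data known. Named genes are 23 fixed members, the 4 largest increases and decreases among called members of each comparison, and up to 3 genes of each other list with the smallest adjusted p; further genes are named after their values were seen. Some named genes are not reported here.

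All genes passing filterByExpr were fitted together by the two-sided quasi-likelihood test of edgeR (4.0.16, R 4.3.3) after TMM scaling, 10 samples as 4 group means, with Benjamini-Hochberg adjustment over 15526 genes and a threshold of 0.05, for 5 comparisons. The SE is the log2 fold change divided by the root of F. CPM use TMM factors; shares use raw counts. Total counts were 17728722 to 19642533 per library, and a member had 54 counts or more in every library. Exon lengths are unions from GENCODE M21 (GRCm38), matched by gene identifier for 92% of tested genes. Alternatives were DESeq2 1.42.0, limma-voom (limma 3.58.1), 2 other filters, 4 other scalings, a replicate block, only the groups compared, a threshold of 0.01 and each library left out. The pipeline was tested on simulated data. Protein sequences were not used here.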

Additional observations from a re-analysis of the deposited data

How the results depend on the processing

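The alternatives were tallied for the tested fixed members and for the members with the largest changes among those called in a comparison. No called value of these changed its direction under any alternative. The other genes named above were not part of this tally. Over these members and the comparisons, 2863 values kept their side of the threshold, 144 lost a call and 45 gained one. The counts of members that moved by more than 1.5 times were these. In WT, 12 were higher with upper quartile factors, 24 with library size alone and 20 at an adjusted p under 0.01, against 40. These are 15%, 30% and 25% of members, where 17.8%, 21.3% and 18.3% of all tested genes were higher, against 50% and 24.5%. In the next sentences, the percent in parentheses is the share of all tested genes called that way in the same fit. In WT 8 were lower with upper quartile factors (26%) and 9 without both treated libraries numbered 3 (19.7%), against 4 (19.7%). In OVA, 8 were lower with upper quartile factors (27.8%) and 6 without both libraries numbered 3 (22.5%), against 3 (22.9%). The difference of responses had 1 higher with DESeq2 (0.241%), 1 with no filter (0.212%) and 2 without both libraries numbered 3 (0.202%), against 0 (0.0773%). Between untreated lines, 2 were higher with only the groups compared (3.8%) and 2 without both libraries numbered 3 (4.02%). At an adjusted p under 0.01 there were 0 higher (1.29%), against 1 (2.98%). In that comparison 4 were lower with no filter (1.27%), 3 with at least 1 CPM in 5 samples (4.13%) and 6 with only the groups compared (4.22%). There were 6 lower without both libraries numbered 3 (3.54%), 0 with limma-voom (2.45%) and 0 at an adjusted p under 0.01 (1.17%), against 1 (2.55%). Under IFN-γ, OVA over WT, 14 were higher (2.9%) and 1 lower (3.42%) with no filter, and 9 higher with library size alone (9.34%). There were 14 higher without both libraries numbered 3 (5.39%) and 0 at an adjusted p under 0.01 (2.86%). The main fit had 5 higher (6.36%) and 0 lower (7.99%). The cause of these moves was not tested.

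Replicate numbers were not shown to pair the samples. Over all tested genes, deviations of same-numbered samples had correlations between -0.0721 and 0.0349. Over the members, both treated libraries numbered 1 were lowest of their group (median log2 deviation -0.0516 in WT and -0.0545 in OVA). Both numbered 3 were highest (0.0735 and 0.0528). Pairing cannot be decided here, since the 2 untreated libraries of a line deviate from their mean by equal and opposite amounts. With a replicate block, 35 members were higher and 7 lower in WT, where 23.8% and 19.2% of all tested genes were. In OVA 45 were higher and 5 lower, where 24.8% and 22% of all tested genes were. Between untreated lines 2 were higher and 6 lower, where 3.6% and 3.27% of all tested genes were. Under IFN-γ 15 were higher and 1 lower, where 7.34% and 9.44% of all tested genes were.

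Leaving out each library in turn gave 18 to 39 higher and 3 to 7 lower in WT, 31 to 52 higher and 2 to 6 lower in OVA, 0 to 2 higher for the difference, 0 to 1 higher and 0 to 2 lower between untreated lines, and 1 to 20 higher and 0 to 1 lower under IFN-γ. Over the fits without 1 treated library, 21 to 38 members were higher in WT, where 21.2% to 23.5% of all tested genes were. In OVA 40 to 52 were, where 22.6% to 25.7% of all tested genes were. All tested genes called lower in these fits were 18.3% to 21% in WT and 21.6% to 24.2% in OVA. Under IFN-γ, OVA over WT, 3.81% to 7.29% of all tested genes were higher. Shares of counts without the 10 most abundant other genes were 2.746% and 2.809% in WT and 2.721% and 2.917% in OVA. The ratio of subunits without Rps2 and Rpsa was 2.037 and 2.072 in WT and 2.049 and 2.044 in OVA. The difference of responses cannot be fitted from only the groups compared, since it needs all 4. With 2 untreated libraries per line, leaving one out leaves a lone library that is assumed to vary like the other groups.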
